A study of Saccharomyces cerevisiae with 210 samples.

Results

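The 45 genes described here encode yeast enzymes that make histidine, the aromatic amino acids, the branched-chain amino acids, serine, threonine through homoserine, proline, glutamate, glutamine and asparagine, together with the transcription factor gene GCN4. They were chosen by function, as named members of these pathways other than the arginine and lysine branches, with earlier results of these data known. All 45 were found among the 5656 genes measured. Each is read by 1 probe set of the array. There are 6 histidine genes, 11 aromatic genes, 10 branched-chain genes, 4 serine genes, 5 threonine and homoserine genes, 3 proline genes, 5 genes of glutamate, glutamine and asparagine synthesis, and GCN4. Of these genes, 44 lay above the median gene in mean signal over all arrays and 26 lay in the top 10% of genes. HIS6 was the dimmest, above 47.2% of genes. The genes the results turn on are GLT1 (YDL171C), GLN1 (YPR035W), SER2 (YGR208W), PRO1 (YDR300C), LEU9 (YOR108W), LEU1 (YGL009C), ILV3 (YJR016C), HIS1 (YER055C), HIS6 (YIL020C), HIS7 (YBR248C), TRP3 (YKL211C), HOM3 (YER052C), ASN1 (YPR145W) and GCN4 (YEL009C).

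Budding yeast can make every amino acid of its proteins. When a tRNA lacks its amino acid, the kinase Gcn2 slows general translation while translation of the GCN4 message goes up, and the Gcn4 protein then activates many of the genes described here, a program called general amino acid control. GCN4 is therefore set largely at translation, which an RNA level does not show. Several branches also have controls of their own, such as Leu3 in the leucine branch and the nitrogen-source regulators of GLN1 and GLT1.

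The cells were mutants or wild type of strain BY4743, a diploid laboratory strain of Saccharomyces cerevisiae. The mutants lacked YAP1 (yap1), the gene of the main transcription factor of the oxidant response, GLR1 (glr1), the gene of glutathione reductase, GPX1 or GPX2 (gpx1 and gpx2), genes of glutathione peroxidases, or GRX1 or GRX2 (grx1 and grx2), genes of glutaredoxins. Of 6 fermentor cultures per genotype in mid-exponential phase, 3 received 0.19 mM CHP (read here as the organic peroxide cumene hydroperoxide) and 3, called Control, received none. Each culture was sampled at 0, 3, 6, 12 and 20 min, the 0 min sample of a treated culture just before CHP, which gives 210 Affymetrix Yeast Genome S98 arrays in 70 groups of 3. BY4743 is a strain without functional HIS3 or LEU2, so it takes up histidine and leucine from the medium, whose composition is not given in the sources used here. Each genotype was studied as 1 strain, and the labels call the cultures biological replicates. Values are log2 expression as deposited, a response is CHP minus Control at 1 time (3 cultures against 3), and a gene is said to rise or fall, or is called, where limma's p adjusted by Benjamini-Hochberg over all 5656 genes was below 0.05. The RNA came from whole cultures, so fewer cells of a kind and less RNA per cell cannot be told apart.

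In all 6 mutants the highest signal for the deleted gene was below the lowest in wild type. YAP1 averaged 3.5 ± 0.33 over the arrays of yap1 and 6.66 ± 0.45 over those of wild type (SD, n = 30 each), and GLR1 averaged 4.11 ± 0.42 in glr1 and 9.39 ± 0.36 in wild type. The diploid label was checked with 16 genes that diploid cells keep low. Their mean was between 4.28 and 5.47 on every array of the genotypes other than gpx2, but between 5.81 and 6.73 on the 30 arrays of gpx2. STE2, which encodes the receptor for alpha-factor, averaged 7.97 in gpx2 and 3.67 in wild type, and MFA2, which encodes a-factor, averaged 12.05 and 7.05, while STE3, which encodes the receptor for a-factor, averaged 3.71 and 3.93. The cultures labelled gpx2 therefore go against the diploid label, and in any comparison of gpx2 with wild type the lack of GPX2 and this difference of strain cannot be told apart. Among the other arrays, 4 cultures held one taken to stand apart from its group. These were yap1 Control 1 at 0 min, glr1 Control 3 at 20 min, grx2 CHP 2 at 20 min and wild-type CHP 1 at 0 min. In the last, the oxidant-induced gene SRX1 was already at 10.99. The choice did not follow distance alone. The root-mean-square distance from group mates was 0.297 for that wild-type array and 0.668 for glr1 Control 3 at 20 min. It was 0.614 for grx2 Control 3 at 20 min and 0.591 for glr1 CHP 3 at 6 min, which were not among the 4. Many results that rest on these 4 cultures are given with and without them. The changes from 0 min were not computed without wild-type CHP 1, so all wild-type values by that measure include this array.

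After 20 min of CHP, the genes that fell in wild type were of histidine, branched-chain, serine, proline, glutamate, glutamine and asparagine synthesis, and those that rose were mostly aromatic. Of the 45 genes, 8 rose and 12 fell, against 38.6% of all genes called (16.7% up and 21.9% down). The share of these genes called was 44.4%, near that background, and their median response was -0.11 against -0.04 for all genes. With arrays centred on their median the split was 11 up and 10 down, so the balance of directions in wild type depends on the scaling. Compared by the change from each culture's own 0 min sample, 4 rose and 9 fell. The share of all genes called by that measure is not given here.

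GLT1, of nitrogen assimilation, and SER2, of the serine branch, fell most. GLT1, which encodes glutamate synthase, had log2 levels of 6.38, 6.15 and 6.37 in the CHP cultures and of 8.46, 8.11 and 7.99 in the Control cultures. No CHP culture came near a Control culture, and the response was -1.88 (SE 0.27, adjusted p = 8.23e-10). SER2 encodes phosphoserine phosphatase, the last enzyme of serine synthesis from glycolysis, and stood at 6.56, 6.68 and 6.98 with CHP and 8.52, 8.65 and 7.98 in Control. Its groups were also apart, with a response of -1.64 (SE 0.21, adjusted p = 2.35e-11). GLN1, the gene of glutamine synthetase, was at 10.17, 10.07 and 9.78 with CHP against 11.11, 10.96 and 10.79 in Control. This was again without overlap (-0.95, SE 0.20, adjusted p = 3.41e-05). GDH1, which encodes the glutamate dehydrogenase that fixes ammonium, had a response of -0.21 that did not pass the test (adjusted p = 0.382).

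PRO1 and LEU9 fell by about 1 log2 unit. PRO1 encodes glutamate kinase, which commits glutamate to proline, and had 7.31, 7.76 and 7.70 with CHP against 8.63, 8.72 and 8.39 in Control. The response was -0.99 (SE 0.15, adjusted p = 1.44e-08), while the genes of the later proline enzymes, PRO2 (0.16) and PRO3 (-0.12), did not pass the test. PRO2 read 10.11, 10.21 and 10.31 with CHP against 9.95, 9.97 and 10.21 in Control, and these groups overlapped. LEU9, 1 of the genes for isopropylmalate synthase, the entry to leucine synthesis, had 5.91, 6.02 and 6.49 with CHP against 7.43, 7.32 and 7.09 in Control (response -1.14, SE 0.16, adjusted p = 1.81e-09). The Control values of LEU9 all lay above every CHP value. ILV3 encodes dihydroxyacid dehydratase, which isoleucine and valine synthesis share, and was at 10.08, 9.54 and 9.40 with CHP and 11.12, 10.55 and 10.10 in Control. The lowest Control value of ILV3 was only just above the highest CHP value, and the response was -0.92 (SE 0.20, adjusted p = 6.17e-05). ILV5 (-0.52), the reductoisomerase gene, and ILV1 (-0.48), the threonine deaminase gene, fell as well, so 4 branched-chain genes fell and 1, LEU4, rose.

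By level, 3 of the 6 histidine genes described here fell and none rose. HIS1, whose product carries out the first step, had 10.17, 10.30 and 10.25 with CHP and 11.03, 11.09 and 10.82 in Control. Its response was -0.74 (SE 0.16, adjusted p = 2.87e-05), with no overlap. HIS4, which encodes a multifunctional enzyme of the pathway, fell by 0.35 (adjusted p = 0.0285). HIS6, an isomerase gene, was at 5.55, 5.88 and 5.77 with CHP against 6.33, 6.60 and 6.13 in Control. Its fall (-0.62, adjusted p = 0.0209) was not called without wild-type Control 2 (-0.50, adjusted p = 0.113) or without wild-type CHP 1 (-0.53, adjusted p = 0.0955). By change from 0 min HIS1 fell (-0.76, adjusted p = 0.000531) and HIS5 rose (0.51, adjusted p = 0.037). HIS4 (-0.40, adjusted p = 0.0809) and HIS6 (-0.48, adjusted p = 0.144) were not called by that measure. ASN1, an asparagine synthetase gene, read 9.75, 9.86 and 9.91 with CHP against 10.39, 10.45 and 10.37 in Control, and fell by 0.57 (adjusted p = 0.0112).

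The genes that rose in wild type were mostly aromatic: 6 of 11 rose and 0 fell. TRP3 encodes a subunit of anthranilate synthase, the first enzyme of the tryptophan branch, and had 8.32, 8.74 and 8.74 with CHP against 7.92, 7.79 and 8.15 in Control. Every CHP culture was above every Control culture, and the response was 0.65 (SE 0.16, adjusted p = 0.000346). ARO2, the gene of chorismate synthase at the end of the shared aromatic trunk, read 12.11, 12.41 and 12.40 with CHP and 11.47, 11.87 and 11.93 in Control, a response of 0.55 (SE 0.13, adjusted p = 0.000232). ARO3 (0.43), TRP2 (0.39), ARO8 (0.35) and TRP5 (0.23) were the other aromatic genes that rose. They encode an entry enzyme of the trunk, the other anthranilate synthase subunit, an aromatic aminotransferase and tryptophan synthase. HOM2, the gene of aspartate semialdehyde dehydrogenase on the way to homoserine, read 10.43, 10.26 and 10.49 with CHP against 9.65, 9.95 and 9.94 in Control and rose by 0.54 (adjusted p = 0.00549), or 0.45 without wild-type Control 1 (adjusted p = 0.0549). By change from 0 min TRP3 (0.51, adjusted p = 0.0413), ARO2 and TRP5 were the aromatic genes called up, while ARO3 (0.19, adjusted p = 0.529), TRP2 (adjusted p = 0.0555), ARO8 (adjusted p = 0.125) and HOM2 (adjusted p = 0.258) lost the call. GCN4 itself read 11.82, 11.43 and 11.46 with CHP and 11.86, 12.08 and 11.45 in Control. These groups overlapped, and the response of -0.23 did not pass the test (adjusted p = 0.263). It did so without wild-type Control 3 (-0.40, adjusted p = 0.0466) and without the 4 cultures that stood apart (-0.35, adjusted p = 0.0124).

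**Figure D1:**
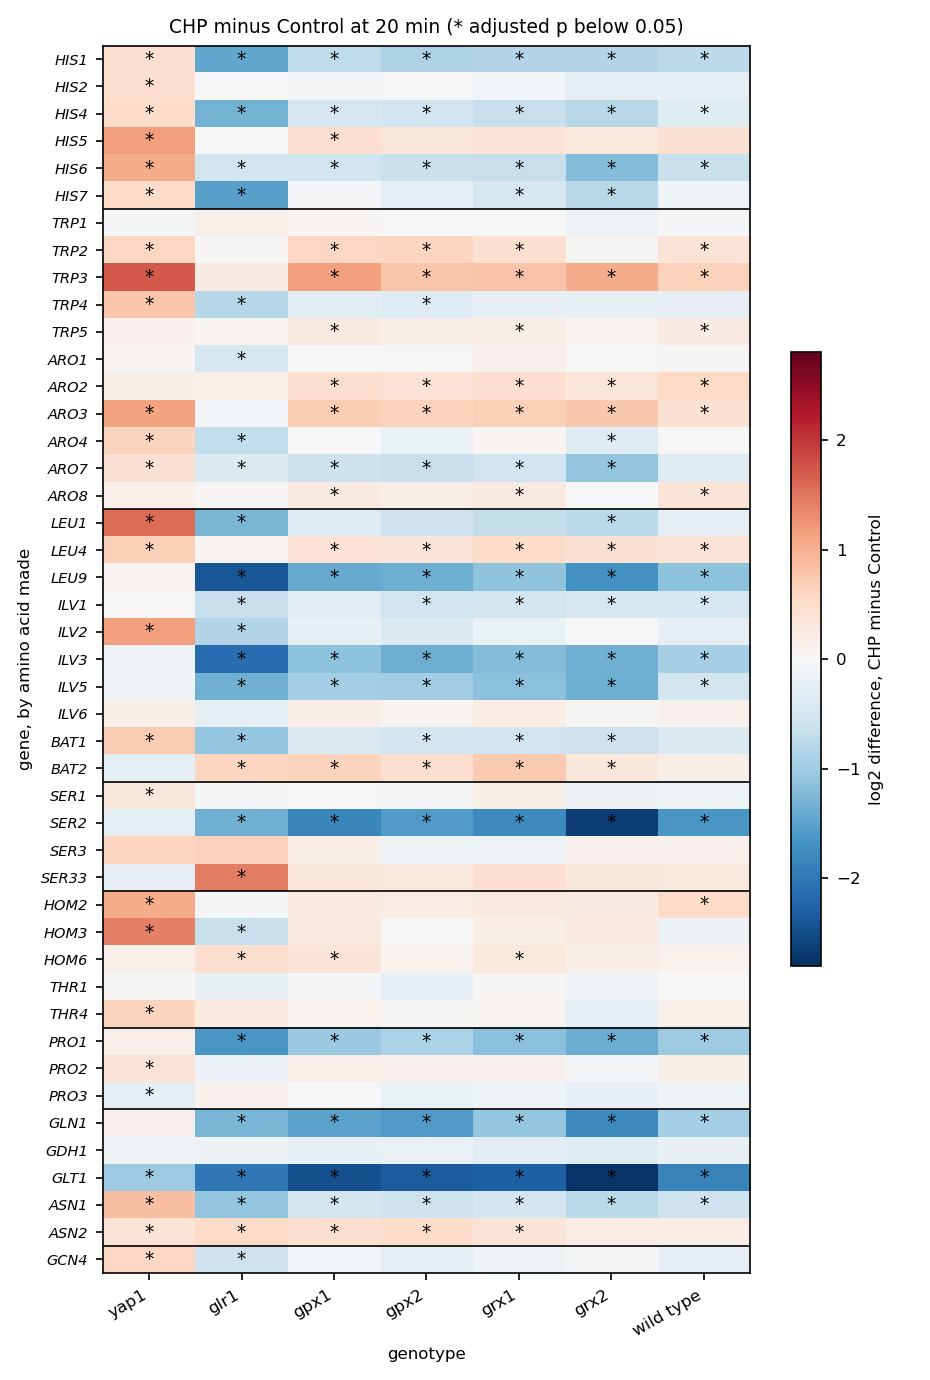
Response to CHP at 20 min (log2 difference, CHP minus Control, colour) of the 45 genes (rows, grouped by the amino acid made) in 7 genotypes (columns), each from 3 cultures per arm; an asterisk marks an adjusted p below 0.05. The yap1 column is mostly red, with 24 genes up and 2 down, while GLT1, SER2, LEU9 and PRO1 are blue in the 6 other genotypes. GLT1 is also among the 2 genes down in yap1.

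SER2 was the first of the 45 genes to be called as lower. At 3 min limma called 0 of the 45 genes in each of the 7 genotypes. The counts at an unadjusted p below 0.05 were 1 in yap1, 5 in glr1, 1 in gpx1, 0 in gpx2, 0 in grx1, 3 in grx2 and 2 in wild type. The shares of all genes called at 3 min were small too, at 0.495% in yap1, 1.31% in glr1, 1.2% in gpx1 and gpx2, 1.1% in grx1, 1.49% in grx2 and 0.778% in wild type. At 6 min SER2 read 7.73, 7.15 and 7.30 in the wild-type CHP cultures and 8.88, 8.97 and 8.15 in Control, a fall of 1.28 (SE 0.21, adjusted p = 6.85e-07), and it was the only one of the 45 genes called there (12.7% of all genes were). Without the 4 cultures that stood apart 4 genes fell and 2 rose there, and the count was 3 without wild-type Control 3 and 2 without wild-type CHP 1. SER2 was also the only one called at 6 min in gpx1 (-1.07), gpx2 (-0.78) and grx1 (-0.89), where 6.79%, 5.68% and 6.31% of all genes were called. The gpx2 call was lost without gpx2 Control 3 (-0.66, adjusted p = 0.0965) or gpx2 CHP 1 (-0.73, adjusted p = 0.055). With only the genotype compared in the fit, more of the 45 genes were called at 6 min in gpx1, gpx2 and grx1. In grx2 SER2 fell (-1.10) while SER33 (0.62) and TRP4 (0.45) rose, with 10.9% of all genes called. SER33 there was 0.25 without grx2 Control 1 and 0.98 without grx2 Control 2, and both rises lost the call without grx2 CHP 2. In glr1 SER2 fell (-0.81) while HOM3 (0.76), SER33 (0.62), TRP2 (0.62) and ARO4 (0.48) rose, with 23.4% called. HOM3 was 0.52 (adjusted p = 0.148) and TRP2 0.47 (adjusted p = 0.0514) without glr1 CHP 3, where the count was 1, against 9 without glr1 CHP 1 and 10 without glr1 Control 3. In the CHP cultures of yap1 SER2 stood at 8.42, 8.33 and 8.50 at 6 min, against 8.55, 8.58 and 8.79 in its Control cultures. That response was -0.23 at 6 min, -0.01 at 12 min and -0.26 at 20 min, none past the test. By change from 0 min SER2 was called down in yap1 at 20 min (-0.59, adjusted p = 0.0331), but not without yap1 Control 1 (-0.37, adjusted p = 0.284), while in wild type the same measure gave -1.47 (adjusted p = 7.85e-08).

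By 12 min glutamine synthetase had followed. In wild type 7 of the 45 genes rose and 7 fell (30.2% of all genes called), led by SER2 (-2.14, adjusted p = 1e-16), GLN1 (-1.66, adjusted p = 2.72e-12) and GLT1 (-1.04, adjusted p = 0.000982). GLN1 had 9.54, 9.31 and 9.46 in the CHP cultures and 11.02, 11.45 and 10.81 in the Control cultures at this time, which are further apart than at 20 min. The wild-type count at 12 min rests on few cultures. It was 7 without Control 1 and 9 without any 1 of the 3 CHP cultures, and with arrays centred on their median it was 11 up and 3 down. In the reported fit, which shares a spread per gene over all genotypes, the other genotypes with YAP1 had counts of the same order. With only the genotype compared in the fit, the counts were higher in grx1, gpx1 and gpx2 and lower in grx2, as given further below. SER2 and GLN1 were the most lowered of the 45 genes in each. In glr1 5 genes rose and 8 fell (40% of all genes called). The counts up and down were 10 and 6 in grx2 (40.5%), 6 and 5 in grx1 (30.9%), 7 and 5 in gpx2 (32.1%) and 7 and 4 in gpx1 (30.8%). The grx1 count was 7 without grx1 CHP 3, and centring on the median gave 10 up and 4 down in grx1 and 16 up and 6 down in grx2. Over these 6 genotypes, wild type included, SER2 responded with -1.71 to -2.14 and GLN1 with -1.42 to -1.74, while in yap1 GLN1 stood at 0.08 (adjusted p = 0.819). TRP3 rose by 0.77 to 1.15 in the 5 mutants with YAP1 and by 0.78 in wild type. SER33, which encodes the enzyme that opens serine synthesis, rose at 12 min in glr1 (0.80), grx2 (0.84), gpx2 (0.73), gpx1 (0.61) and wild type (0.66), while its response in yap1 was -0.28. HOM3, which encodes aspartate kinase, rose at 12 min in all 7 genotypes, by 0.86 to 1.07 in the mutants and by 0.54 in wild type (0.52 in glr1 without glr1 CHP 3). At 20 min HOM3 was called up in yap1 only, and called down in glr1 (-0.64), a call lost without glr1 Control 3 (-0.10, adjusted p = 0.69).

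At 20 min the genes that fell in wild type mostly fell in the other strains with YAP1 as well. In glr1 4 genes rose and 22 fell, against 29.3% of all genes up and 26.7% down (55.9% called). In grx1 10 rose and 15 fell (22.7% and 26%, 48.7% called), in gpx2 7 and 15 (24% and 24.1%, 48.1% called), and in gpx1 11 and 12 (22.8% and 26.3%, 49.1% called). In grx2 5 rose and 17 fell (26.1% and 39.3%, 65.4% called), but with arrays centred on their median the split in grx2 was 12 and 13. The 22 genes lower in glr1 were 4 of 6 histidine genes, 4 of 11 aromatic genes, 7 of 10 branched-chain genes and 7 others, among them GCN4 (-0.59, adjusted p = 0.000536). Without glr1 Control 3 the calls of HIS6, TRP4, ARO1, ARO7, LEU1, ILV1, ILV2, HOM3 and GCN4 (-0.28, adjusted p = 0.101) in glr1 were lost. The genes HIS1, HIS4, HIS6, LEU9, ILV3, ILV5, SER2, PRO1, GLN1, GLT1 and ASN1 fell in all 6 of these genotypes, 11 in all. None rose in all 6, and 10 genes were called in none. The shares of all genes that fell in all 6, or were called in none, were not computed. Whether these counts are unusual therefore cannot be told. Over the 6 genotypes GLT1 responded with -1.88 to -2.75, SER2 with -1.34 to -2.63, LEU9 with -1.12 to -2.39 and ILV3 with -0.92 to -2.14. ARO7, the chorismate mutase gene that leads to phenylalanine and tyrosine, fell in the 5 mutants (-0.38 to -1.11), against -0.33 with no call in wild type. ILV1 fell in 5 of the 6 genotypes, all but gpx1 (-0.29).

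At 20 min, pairs of related genes for an enzyme were often called in opposite directions in the mutants with YAP1. In wild type only LEU4 and LEU9 were. ARO3 (0.76) and ARO4 (-0.36) had opposite calls in grx2 alone. In yap1 no pair did, and ASN1 (0.84) and ASN2 (0.39) both rose, as did ARO3 (1.13) and ARO4 (0.62). The response of LEU9 was -2.39 in glr1, -1.69 in grx2, -1.42 in gpx1, -1.12 in grx1, -1.37 in gpx2 and -1.14 in wild type. LEU4, the main isopropylmalate synthase gene, rose in 5 of these 6 genotypes, all but glr1 (0.08), by 0.36 to 0.51 in the mutants and 0.38 in wild type. The difference within a pair was not tested. BAT2, the gene of the cytosolic branched-chain aminotransferase, rose in the 5 mutants by 0.32 to 0.73, and BAT1, that of the mitochondrial enzyme, fell in glr1, gpx2, grx1 and grx2 (-0.53 to -1.08). In wild type neither BAT2 (0.17) nor BAT1 (-0.40) passed the test. ASN2 rose in glr1 (0.54), gpx2 (0.51), gpx1 (0.46) and grx1 (0.37), while its partner ASN1 fell in all 6. SER3 and SER33 encode phosphoglycerate dehydrogenase, at the entry of serine synthesis. At 20 min SER33 was called in glr1 alone of the 7 genotypes (1.44, adjusted p = 4e-09), and SER3 in none. The SER33 response of glr1 was 1.14 without glr1 Control 3 (adjusted p = 5.81e-06) and 1.19 by change from 0 min (adjusted p = 9.29e-05). In wild type SER33 read 9.61, 9.78 and 9.63 with CHP against 9.26, 9.36 and 9.50 in Control, groups that did not overlap but differed by 0.30 only (adjusted p = 0.297).

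In the yap1 mutant more of these genes rose than fell. At 20 min 24 of the 45 genes rose and 2 fell, against 18.2% of all genes up and 26.3% down (44.5% called), and their median response was 0.39 against -0.10 for all genes. All 6 histidine genes rose, as did 6 of 11 aromatic, 4 of 10 branched-chain, 3 of 5 threonine and homoserine genes, and GCN4. By change from each culture's own 0 min 15 rose and 5 fell, with a median of 0.04 against -0.10 for all genes, and by the same measure without yap1 Control 1 16 rose and 2 fell, with a median of 0.24 against -0.08. For these counts the shares of all genes called are not given here. Of the histidine genes HIS2, HIS5 and HIS6 were called up by change from 0 min, and HIS5 and HIS6 without yap1 Control 1. GCN4 stood at 0.04 by change from 0 min (adjusted p = 0.859) and at 0.43 without yap1 Control 1 (adjusted p = 0.000923). TRP3 had 9.63, 9.77 and 9.78 in the CHP cultures of yap1 and 7.90, 8.17 and 7.96 in its Control cultures. This response of 1.72 (SE 0.16, adjusted p = 5.48e-19) was the largest of the 45 genes in yap1. LEU1 encodes isopropylmalate isomerase of the leucine branch and read 10.89, 11.07 and 10.92 with CHP against 9.46, 9.53 and 9.22 in Control (1.56, SE 0.31, adjusted p = 6.77e-06). HOM3 read 10.27, 10.28 and 10.55 with CHP against 8.73, 9.11 and 8.98 in Control (1.42, SE 0.21, adjusted p = 4.96e-09). In these 3 genes every CHP culture stood more than 1 log2 unit above every Control culture. HIS5 (1.17), ILV2 (1.15), ARO3 (1.13), HIS6 (1.03) and HOM2 (1.03) also rose by more than 1, and encode an aminotransferase of the histidine pathway, acetolactate synthase, an entry enzyme of the aromatic trunk, the isomerase named above and aspartate semialdehyde dehydrogenase. GLT1 (-1.01, adjusted p = 0.000854) and PRO3 (-0.27, adjusted p = 0.0328) were the 2 genes that fell. GLT1 read 7.59, 7.15 and 7.28 with CHP against 8.48, 8.27 and 8.31 in Control.

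At 6 min 9 of the 45 genes were higher with CHP in yap1 and 0 lower (14.2% of all genes called), among them HIS6 (1.00), HOM3 (0.88), TRP4 (0.66) and GCN4 (0.43). HOM3 (0.67) and GCN4 (0.54) were already called higher in these cultures at 0 min, before CHP, while HIS6 (0.18) and TRP4 (0.27) were not. The count at 6 min was 4 without yap1 Control 1, Control 3 or CHP 2. By change from 0 min HIS6 (0.82, adjusted p = 0.0262) and ILV2 (0.70, adjusted p = 0.0321) rose and PRO3 (-0.50, adjusted p = 0.0246) fell, and without yap1 Control 1 the count by that measure was 0. At 12 min 20 rose and 1 fell (29.4% called), led by TRP3 at 1.34 (adjusted p = 1.14e-12), and ILV5 (-0.40) was the gene that fell. In the time courses of the level, the CHP cultures of yap1 leave its Control cultures upward for TRP3, LEU1 and HOM3, and those of wild type leave its Control cultures downward for SER2, GLN1, GLT1 and LEU9. Not all of these set the genotypes apart. GLT1 also went down in yap1, and TRP3, and HOM3 at 12 min, also went up in wild type.

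**Figure D2:**
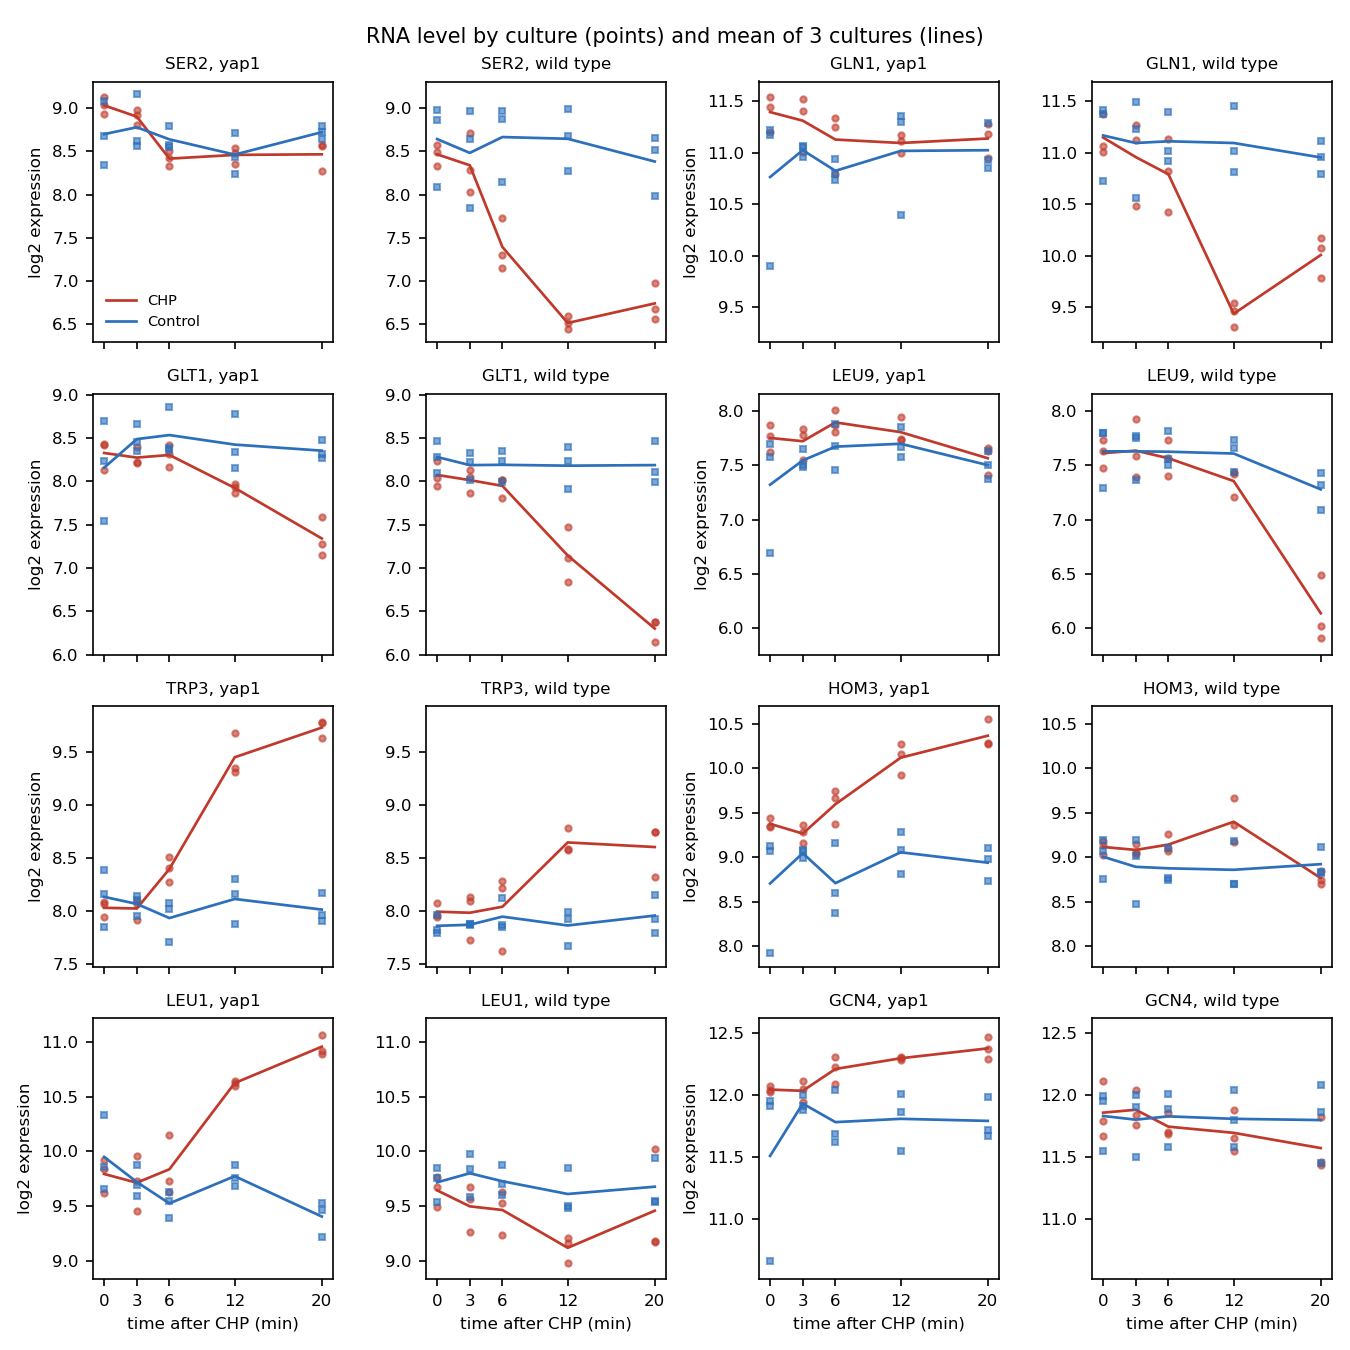
Log2 expression (vertical axes) against time after CHP in min (horizontal axes) for 8 genes in yap1 and wild type, with a point for each of 3 cultures and a line for their mean, CHP red and Control blue. SER2 with CHP in wild type reaches 6.44 to 6.59 at 12 min while in yap1 it stays at 8.36 to 8.54, and in several panels of yap1 1 Control culture is far from the others at 0 min.

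The response of yap1 was set against that of wild type directly, as the difference of the 2 responses over 12 cultures. At 20 min 22 of the 45 genes had a higher response in yap1 and 0 a lower one, where 11.5% of all genes were higher and 11.7% lower (23.2% called). The median difference was 0.61, against -0.02 for all genes. The largest were LEU1 (1.78, SE 0.43, adjusted p = 0.000731), HIS6 (1.66, adjusted p = 1.92e-05), HOM3 (1.58, adjusted p = 1.26e-05), ASN1 (1.41, adjusted p = 1.35e-05), SER2 (1.39, adjusted p = 0.000118) and ILV2 (1.37). All 6 histidine genes were among the 22, with 5 aromatic genes (TRP3, TRP4, ARO3, ARO4 and ARO7), 5 branched-chain genes (LEU1, LEU9, ILV2, ILV3 and BAT1), SER2, HOM3, PRO1, GLN1, ASN1 and GCN4. The count was 17 to 24 when each culture was left out in turn, and all 22 remained called without the 4 cultures that stood apart.

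These 22 genes were of different kinds. Some rose in yap1 with a wild-type response that did not pass the test, namely HIS2, HIS5, HIS7, TRP4, ARO4, ARO7, LEU1, ILV2, BAT1, HOM3 and GCN4. Among these LEU1 read 10.02, 9.18 and 9.17 with CHP and 9.94, 9.55 and 9.54 in Control in wild type, and HOM3 read 8.75, 8.70 and 8.85 with CHP and 8.82, 9.12 and 8.83 in Control there. In wild type both sets overlapped. By level, HIS1, HIS4, HIS6 and ASN1 rose in yap1 and fell in wild type, but by change from 0 min none of the 4 kept both calls. That measure gave 0.01 in yap1 (adjusted p = 0.973) and -0.76 in wild type (adjusted p = 0.000531) for HIS1, and 0.85 in yap1 (adjusted p = 0.00358) and -0.48 in wild type (adjusted p = 0.144) for HIS6. For ASN1 it gave 0.29 in yap1 (adjusted p = 0.358; 0.74, adjusted p = 0.00221, without yap1 Control 1) and -0.57 in wild type (adjusted p = 0.0655). HIS1 read 11.29, 11.51 and 11.66 with CHP against 11.15, 11.12 and 10.80 in Control in yap1 (0.46, adjusted p = 0.0102), and HIS6 read 7.21, 7.42 and 7.21 against 6.46, 6.55 and 5.73. ASN1 in yap1 read 10.97, 11.14 and 11.23 with CHP against 10.17, 10.38 and 10.27 in Control (0.84, adjusted p = 9.69e-05). The rise of HIS1 in yap1 was not called without yap1 Control 3 (0.35, adjusted p = 0.0973) or yap1 CHP 3 (0.38, adjusted p = 0.079). Others fell in wild type with no call in yap1, namely SER2, PRO1, GLN1, LEU9 and ILV3. PRO1 in yap1 read 8.83, 8.67 and 8.68 with CHP against 8.50, 8.79 and 8.48 in Control, and its response differed by 1.13 (adjusted p = 1.35e-05). GLN1 in yap1 read 11.18, 11.28 and 10.95 against 10.93, 11.29 and 10.85, and its response differed by 1.06 (adjusted p = 0.0023). The difference for ILV3 (0.81, adjusted p = 0.0257) lost the call without yap1 Control 1, Control 3 or CHP 2 or wild-type Control 1, CHP 2 or CHP 3, with a lowest value of 0.55 without wild-type Control 1. TRP3 and ARO3 rose in both, TRP3 by 1.07 more in yap1 (adjusted p = 7.55e-05). The difference for GLT1, 0.87, did not pass the test (adjusted p = 0.0802). At 12 min 12 responses were higher in yap1 and 1, that of SER33, lower (22.5% of all genes called), with SER2 (2.13) and GLN1 (1.73) the largest. At 6 min 4 were higher, those of HIS6, SER2, ILV2 and PRO1 (8.29% called), but this count was 1 or 2 without wild-type Control 1, Control 2, CHP 2 or CHP 3 or yap1 Control 1, 8 without wild-type Control 3 and 10 without yap1 Control 2. It was 0 by change from 0 min without yap1 Control 1.

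The arms of yap1 were not alike before CHP. At 0 min 7 of the 45 genes were higher in the cultures about to receive CHP (6.31% of all genes called), namely ILV6, HOM3, PRO1, PRO2, PRO3, GLN1 and GCN4, and none was lower. Limma called 0 of the 45 genes at 0 min in glr1, gpx1, gpx2, grx1, grx2 and wild type (3, 0, 2, 0, 0 and 0 in that order at an unadjusted p below 0.05), with 0.194% of all genes called in gpx2 and 0% in the others. In yap1 Control 1 several of these genes were low on the 0 min array: ASN1 read 8.95 there and 10.52 and 10.35 in the other Control cultures, and HOM3 read 7.92 there and 9.13 and 9.07 in the others. Without yap1 Control 1 the 0 min count was 0 of 45. It was also 0 without yap1 CHP 2 or CHP 3 and 2 without CHP 1, but 25 without yap1 Control 2 and 22 without Control 3. When each culture's change from its own 0 min sample was compared in place of the level, 12 responses were higher in yap1 at 20 min and 1, that of PRO3, lower, and the 45 genes had a median difference of 0.30. PRO1, GLN1, ASN1, GCN4, HIS4, HIS5, HIS7, ARO3, ARO4 and ARO7 lost the call. With the same measure and without yap1 Control 1, 19 were higher and 1, BAT2, lower, and 18 of the 22 kept the call (all but HIS2, HIS5, HIS7 and ARO4). The shares of all genes called by these measures are not given here, so the counts cannot be read against that background.

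GCN4 depended on the measure in this way. Its level at 20 min was 12.37, 12.29 and 12.47 in the CHP cultures of yap1 and 11.72, 11.98 and 11.67 in its Control cultures, a rise of 0.58 (SE 0.15, adjusted p = 0.000926). At 0 min it was 12.04, 12.07 and 12.02 in the cultures about to receive CHP, against 10.66, 11.95 and 11.91 in Control, so yap1 Control 1 lay far below the rest. The difference from the wild-type response was 0.81 (adjusted p = 0.00266) by level, 0.29 (adjusted p = 0.416) by change from 0 min, and 0.68 (adjusted p = 2.31e-04) by change from 0 min without yap1 Control 1.

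**Figure D3:**
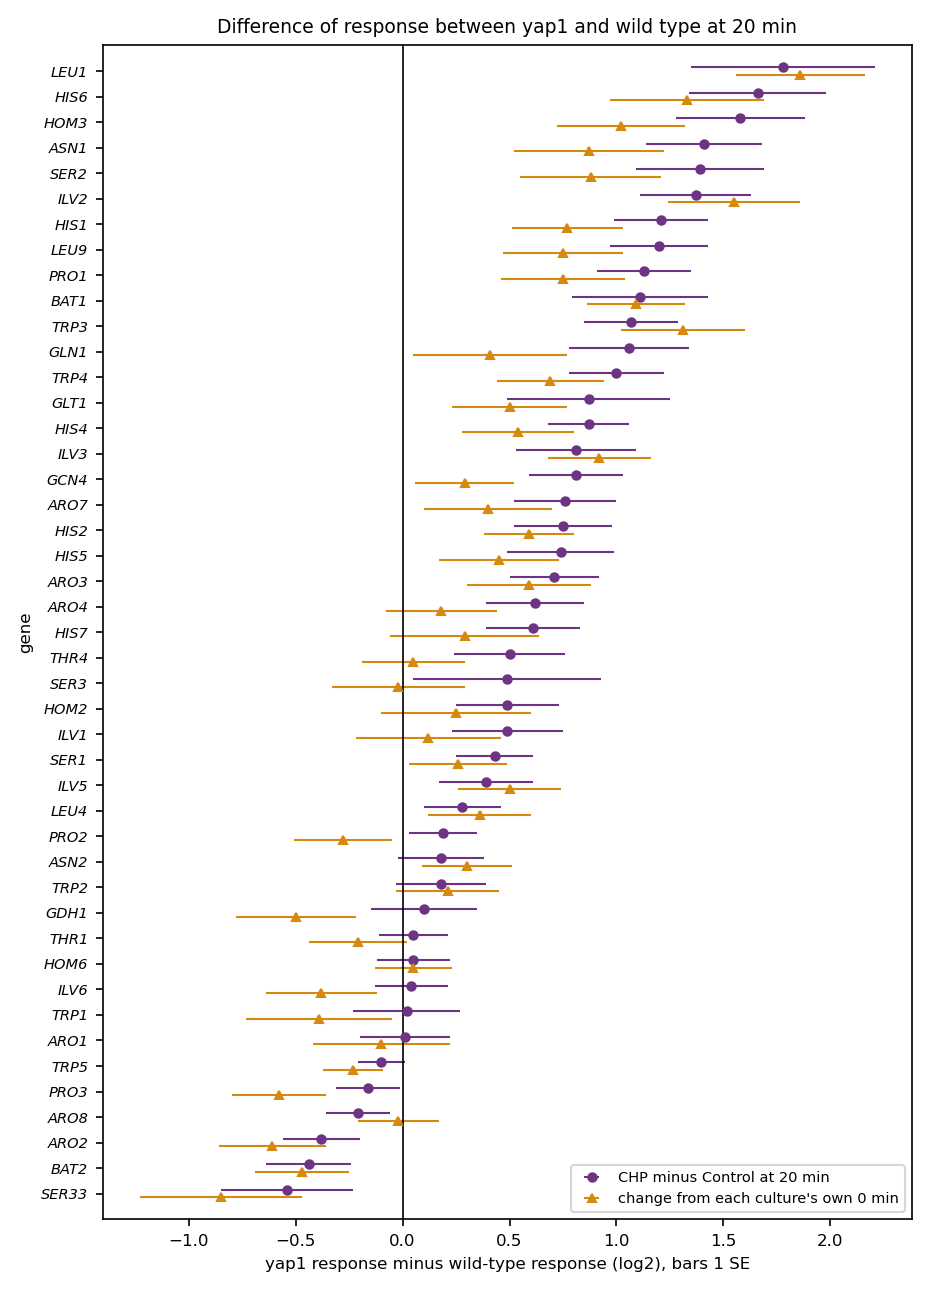
Difference of response between yap1 and wild type at 20 min (horizontal axis, log2, yap1 minus wild type; bars are 1 SE) for the 45 genes, by level (circles) and by change from each culture's own 0 min (triangles). LEU1 is the largest by level at 1.78, and most triangles of the upper rows, such as GCN4 at 0.29, lie left of their circles.

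In glr1 the falls were deeper for some histidine and branched-chain genes. At 20 min 6 of the 45 responses were lower than in wild type and 1 higher, where 2.03% of all genes were lower and 3.04% higher (5.07% called). HIS7, which encodes the glutamine-using step of histidine synthesis, had 7.58, 7.74 and 7.62 in the CHP cultures of glr1 and 8.81, 8.98 and 9.74 in its Control cultures. In wild type the HIS7 groups overlapped, at 8.55, 8.85 and 8.69 with CHP and 8.63, 8.94 and 8.84 in Control. The difference was -1.42 (SE 0.22, adjusted p = 2.53e-06). LEU9 read 5.39, 5.11 and 5.29 with CHP against 7.46, 7.31 and 8.18 in Control in glr1, and its response differed by -1.25 (SE 0.23, adjusted p = 9.05e-05). ILV3 (-1.22), HIS4 (-0.97), ILV5 (-0.82) and HIS1 (-0.71) were the other lower responses, and SER33 (1.14) the higher one. The SER33 difference was 0.84 without glr1 Control 3 (adjusted p = 0.0419) and 0.81 without the 4 cultures that stood apart (adjusted p = 0.0346), but lost the call without glr1 CHP 3 (0.99, adjusted p = 0.0793) and by change from 0 min (1.03, adjusted p = 0.145). In all 6 genes with a lower response glr1 Control 3 was the highest of the Control cultures. Without that culture HIS7 (-1.14, adjusted p = 6.38e-05) and LEU9 (-0.99, adjusted p = 0.00212) kept their calls, and HIS1 and ILV5 did not. The count was 13 without glr1 Control 2. It also moved with the scaling, to 1 higher and 17 lower after quantile normalization and 1 and 11 after centring on the median.

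**Figure D4:**
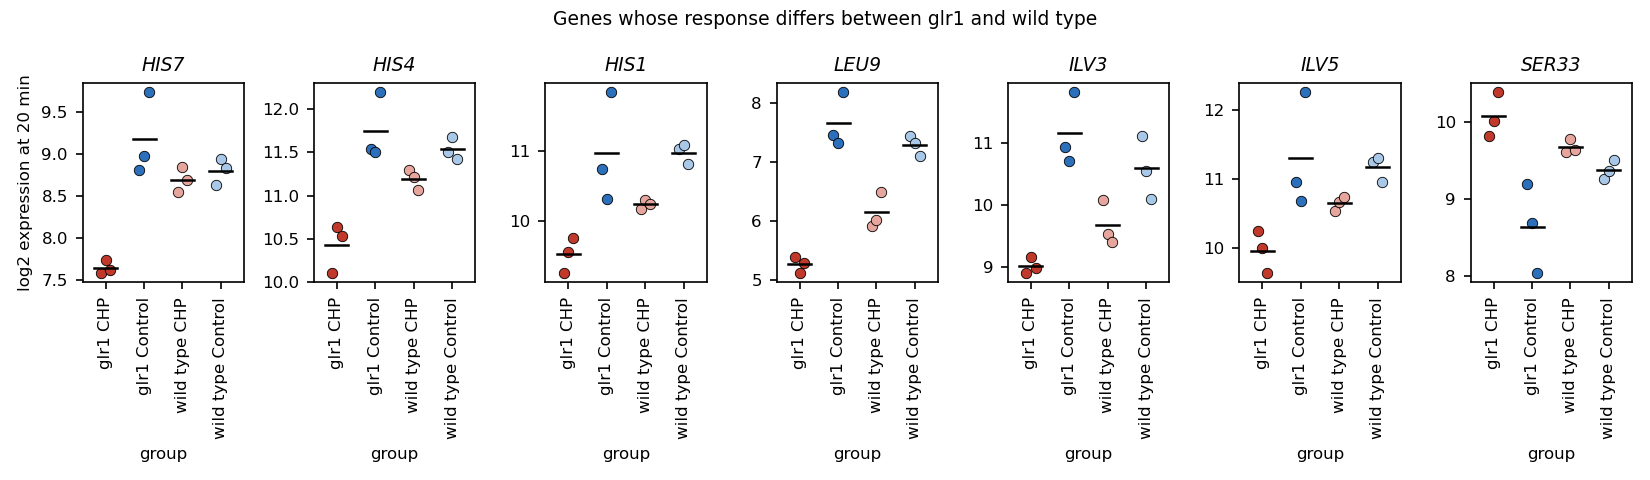
Log2 expression at 20 min (vertical axes) of the 7 genes whose response differed between glr1 and wild type, with a point for each culture and a bar at the mean of 3. For HIS7 the glr1 CHP points lie at 7.58 to 7.74, below the wild-type CHP points at 8.55 to 8.85, and 1 glr1 Control point stands above the others in 6 panels.

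In grx2 5 responses were lower than in wild type at 20 min and 0 higher (18.2% of all genes lower and 9.78% higher, 28% called): HIS7, ARO7, ILV5, SER2 and GLN1. SER2 read 6.34, 5.56 and 6.35 in the CHP cultures of grx2 and 8.77, 9.10 and 8.28 in its Control cultures, and its response differed by -0.99 (SE 0.30, adjusted p = 0.00778). ILV5 read 10.16, 9.45 and 10.29 with CHP against 11.22, 11.49 and 11.28 in Control and differed by -0.84 (SE 0.22, adjusted p = 0.00206). In both genes grx2 CHP 2 was the lowest culture. Without it none of the 5 kept the call, SER2 differing by -0.73 (adjusted p = 0.101) and ILV5 by -0.58 (adjusted p = 0.0628), and the count was 1. That array also had the highest mean of the 16 diploid-low genes outside gpx2, 5.47. The count was 10 without grx2 CHP 1 and 8 without grx2 CHP 3.

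No response of gpx1, gpx2 or grx1 was told apart from that of wild type. At 20 min limma called 0 of the 45 differences in each, with 3, 2 and 2 at an unadjusted p below 0.05 and 0.177%, 0.283% and 0.76% of all genes called. In grx1 1 difference was called without wild-type CHP 1. At 12 min it called 0 in glr1 (3 at an unadjusted p below 0.05, 0.654% of all genes called), gpx1 (1, 0%), gpx2 (0, 0.0884%), grx1 (0, 0%) and grx2 (0, 0.265%). At 6 min it called 0 in glr1 (7, 1.47%; 3 without glr1 Control 3 or without wild-type Control 3, 2 without glr1 CHP 1, 1 without wild-type CHP 1, and 15 higher and 2 lower without the 4 cultures that stood apart), gpx1 (2, 0%), gpx2 (0, 0.0354%), grx1 (0, 0%) and grx2 (3, 0.141%). The standard error of these differences for SER2 was 0.30, so modest differences could be missed with 3 cultures per arm.

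Before CHP, most mutants already differed from wild type in some of these genes, each as 6 cultures against the same 6 of wild type. In gpx1 17 of the 45 were higher and 3 lower (29% of all genes called), in grx2 12 and 4 (29.1%), in grx1 11 and 3 (21.5%), in gpx2 2 and 5 (17.6%) and in yap1 3 and 3 (12.2%). In glr1 limma called 0 (3 at an unadjusted p below 0.05, 0.0707% of all genes called, and 1 without wild-type Control 3). After quantile normalization the counts higher and lower were 9 and 5 in gpx1, 10 and 9 in grx2, 6 and 6 in grx1, 3 and 5 in gpx2 and 3 and 8 in yap1, so the excess of higher genes depends on the scaling. HIS6 was 0.79 higher in gpx1 and 0.56 higher in grx1, and SER3 was 0.73 higher in gpx1, 0.65 in grx1 and 0.68 in grx2. THR4, the threonine synthase gene, was 0.55 higher in gpx1 and 0.52 in grx1. In grx2 LEU1 (0.85) and GLT1 (0.79) were the most raised, and in yap1 ILV2 was (0.46). ARO1, which encodes the multifunctional enzyme of the aromatic trunk, was lower in 5 mutants, at -0.65 in gpx2, -0.41 in grx1, -0.40 in grx2, -0.38 in yap1 and -0.35 in gpx1. ARO2 was lower in the same 5 (-0.24 to -0.41), and HOM6, the homoserine dehydrogenase gene, was higher in them by 0.30 to 0.36, as was ILV3 by 0.43 to 0.67. Since wild type is shared, these 5 values are not independent. The 6 wild-type cultures include CHP 1, where SRX1 was already high at 0 min. Wild-type Control 3 was the lowest of the 6 wild-type cultures in HIS6 (5.94), SER3 (8.55) and ILV3 (10.43). Without it the counts were 9 in gpx1, 9 in grx2, 6 in grx1 and 2 in yap1, and the values of HIS6 and SER3 in grx1 (0.38 and 0.56), SER3 in grx2 (0.60) and ILV2 in yap1 (0.41) lost the call. Without yap1 Control 1 the yap1 count was 0, and it was 13 without yap1 Control 2 and 12 without Control 3. In gpx2 the value of ARO1 was -0.42 without gpx2 CHP 2, a culture at 9.64 where its mates had 10.99 to 11.05.

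Neighbouring genes of amino acid metabolism were read from 3 lists in the same fits, where 44.5% of all genes were called in yap1 and 38.6% in wild type at 20 min. Of 18 other synthesis genes, 5 rose and 5 fell in yap1 at 20 min, and 4 rose and 5 fell in wild type. Set against wild type, the response in yap1 was higher for 3 of these 18 and lower for 4 (11.5% and 11.7% of all genes). Their differences thus went both ways. The 45 genes and these lists were chosen with earlier results of these data known, so no contrast between them is drawn. AGX1, the gene of an aminotransferase that makes glycine from glyoxylate, rose by 0.67 in yap1 and by 2.05 in wild type, a difference of -1.37 (adjusted p = 4.87e-05). GLY1, which encodes threonine aldolase, rose by 2.06 in yap1, against 0.41 in wild type, a difference of 1.65 (SE 0.24, adjusted p = 1.67e-08). GDH3 (1.06) rose and BAS1 (-0.88) and LEU3 (-0.81), regulators of histidine and of leucine genes among others, fell in wild type. Of 11 genes that control the translation of the GCN4 message, 3 fell and 0 rose in yap1, with GCD1 (-0.66) and GCD6 (-0.56) the most lowered. In wild type 7 fell and 0 rose, led by GCD2 (-0.92) and GCN3 (-0.63), and these genes all encode subunits of the initiation factor eIF2B. Of 16 amino acid permease genes 5 fell in yap1, among them the general permease gene GAP1 (-1.59) and AGP1 (-0.89), and 4 rose, among them BAP2 (1.40) and the histidine permease gene HIP1 (1.03). In wild type 7 fell, led by AGP1 (-1.95) and GAP1 (-1.38), and BAP2 (0.87) rose. The response of HIP1 was higher in yap1 by 1.10 (adjusted p = 0.000129).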

How the data were processed

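RNA levels were measured in all cultures on 210 arrays. RMA is the tool the submitters' processing notes name, and the deposited values are log2 expression between 1.59 and 14.57. Its version and settings, and whether it ran over all arrays at once, were not given in the sources used here. Of 9335 probe sets, 60 are controls, 6504 name 1 gene, 328 several and 2503, controls included, none. The probe set with the highest mean was kept for each of 315 genes with several, which left 5656 genes. Each of the 45 genes had 1 probe set. Array data carry no read depth, so the number of arrays limits the precision.

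Groups follow the labels, with the culture as the replicate. Contrasts of 70 group means were fitted with limma 3.58.1 in R 4.3.3, with 140 residual degrees of freedom, adjusted over all genes by Benjamini-Hochberg at 0.05. The correlation within a culture was 0.264. The reported fit left it out and treated all 210 arrays as independent, while an alternative fit took the culture as a random block. The fit was tested on simulated data. Independent normal noise was drawn around each gene's real mean with its real spread, and known changes were added in wild type with CHP at 20 min. For the wild-type response, 97% of changes of 1 log2 unit and 43% of those of 0.5 were recovered. For the difference of yap1 from wild type, 82% and 14% were. The simulation held no correlation within a culture and no outlying arrays.

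Same-numbered cultures were not treated as pairs in the reported fit. Of 21 pairs, 12 had a correlation of deviations above 0.1, with a range of -0.44 to 0.70. These values do not settle whether the cultures pair. The members and lists were chosen with earlier results of these data known. Named with values of every culture are, per amino acid, the 2 largest wild-type responses at 20 min and the largest yap1 difference. Named elsewhere are the 2 or 3 largest per comparison past the threshold, and others as ranges or counts. The alternatives were quantile normalization, centring on the median, the culture as a random block, the replicate block, an intensity trend, a filter on the dimmest 25% of genes, the mean of all probe sets, a fit of the genotypes compared only, the change from each culture's own 0 min, and leaving out each of 42 cultures. Leaving out the 4 cultures that stood apart, and the change from 0 min without yap1 Control 1, were added after seeing the data. Promoter and protein sequences were not analysed here, and raw array files were not used here.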

Additional observations from a re-analysis of the deposited data

Results flagged for a closer look

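In 3 of 24 sets of 6 cultures that were read this way, a culture lay far from the other 5 of its genotype at 0 min. The measure was Dixon's criterion for 6 values (0.625), which chance meets in about 1 of 20 groups. That rate does not apply to these sets. Their genes were picked for the largest called differences from wild type at 0 min, on these same arrays, and were read in the mutant and in wild type. ARO1 was at 10.47 in yap1 Control 1 against 11.08 to 11.29 in the other yap1 cultures, and at 9.64 in gpx2 CHP 2 against 10.99 to 11.05 in the other gpx2 cultures. ARO2 was at 11.19 in gpx2 CHP 3 against 11.51 to 11.66.

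By a test of the difference itself (limma), 22 of the 45 responses at 20 min differed between yap1 and wild type (23.2% of all genes called), 7 between glr1 and wild type (5.07%) and 5 between grx2 and wild type (28%). None of the 5 in grx2 kept the call without grx2 CHP 2. In yap1 these include HIS6 (1.66), TRP3 (1.07), LEU1 (1.78), SER2 (1.39), HOM3 (1.58), PRO1 (1.13), ASN1 (1.41) and GCN4 (0.81). In glr1 they include HIS7 (-1.42) and LEU9 (-1.25), and in grx2 SER2 (-0.99) and ILV5 (-0.84). All of them are log2 differences of response, mutant minus wild type.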

How the results depend on the processing

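The counts below are of the 45 genes called, beside the value in the report. The shares of all genes called in these other fits are not given here. With the change from each culture's own 0 min they were 13 (22 reported) and 6 (13) for the difference of yap1 at 20 and 12 min, 7 (11) for grx1 at 12 min, and 13 (20) and 7 (14) for wild type at 20 and 12 min. PRO2 in yap1 at 20 min turned from 0.35 to -0.09 (adjusted p = 0.702), and that was the only named value to turn sign while called. Without yap1 Control 1 as well, the count for yap1 at 12 min was 13 (21). At 6 min the change from 0 min gave 3 (9) for yap1, 1 (4) for its difference, 1 (5) for glr1 and 1 (3) for grx2.

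With only the genotypes compared in the fit, counts at 12 min were 9 (16) in grx2, 22 (11) in grx1, 21 (12) in gpx2 and 21 (11) in gpx1. They were 0 (7) for the arms of yap1 at 0 min, 3 (7) and 3 (5) for the differences of glr1 and grx2 at 20 min, and 25 (14) for grx1 before CHP. At 6 min they were 1 (5) in glr1, 1 (3) in grx2, 10 (1) in grx1, 5 (1) in gpx2, 6 (1) in gpx1 and 2 (1) in wild type, and 1 (0) for the grx1 difference at 20 min. Without the 4 cultures that stood apart they were 17 (11) for grx1 at 12 min, 0 (7) for the yap1 arms at 0 min, 12 (7) for the glr1 difference, and 11 (7) and 26 (14) for gpx2 and grx1 before CHP. At 6 min they were 12 (5) in glr1, 2 (1) in gpx1, 6 (1) in wild type and 17 (0) for the glr1 difference, which was 3 (0) at 12 min. The arms of glr1 at 0 min had 3 (0), and the grx1 difference at 20 min 2 (0). Quantile normalization gave 18 (7) for the glr1 difference and 11 (6) for yap1 before CHP, and centring on the median 12 and 10. At 6 min they gave 1 (3) in grx2 and 2 (1) in wild type, in the same order. Without the dimmest 25% of genes the yap1 arms at 0 min had 12 (7). The cause was not tested. The fits on fewer genotypes and cultures have fewer arrays. With only the genotypes compared, the spread of a gene is also not shared with the other genotypes.

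With the replicate number as a block, counts were 20 (13) for glr1 at 12 min, 20 (7) for the yap1 arms at 0 min, 13 (7) for the glr1 difference at 20 min, and before CHP 1 (0) in glr1, 11 (7) in gpx2, 23 (14) in grx1 and 14 (6) in yap1. It gave 1 (0) for the grx1 difference at 20 min, and at 6 min 10 (5) in glr1, 5 (3) in grx2, 2 (1) in grx1, 4 (0) for the glr1 difference and 9 (4) for the yap1 difference. The difference of GLT1 in yap1 (0.87) was called with the block, and no other count of changed genes moved by over 1.5 times. It is no evidence of pairing, since 8 of 21 cultures correlated best with their own number.

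Leaving out 1 culture at a time gave, at 20 and at 12 min, 21 to 26 and 15 to 19 for yap1, 23 to 27 and 10 to 16 for glr1, 18 to 22 and 8 to 10 for gpx1, 19 to 22 and 9 to 11 for gpx2, 20 to 23 and 7 to 9 for grx1, 18 to 22 and 11 to 15 for grx2, and 16 to 21 and 7 to 11 for wild type. It gave 0 to 25 for the yap1 arms at 0 min, 17 to 24 and 10 to 16 for the yap1 difference at 20 and 12 min, and 5 to 13 and 1 to 10 for the differences of glr1 and grx2 at 20 min. Before CHP it gave 0 to 13 in yap1, 0 to 1 in glr1, 9 to 17 in grx2, 6 to 18 in grx1, 5 to 8 in gpx2 and 9 to 23 in gpx1.

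Centring on the median moved the median of all genes from -0.14 to 0.04 for grx2 at 20 min, from -0.05 to 0.06 for grx2 and from -0.09 to 0.05 for wild type at 12 min, from 0.05 to -0.08 for the yap1 difference at 12 min and from 0.07 to -0.04 for the glr1 difference at 20 min. The share of calls that were higher, over all genes, moved from 40.9% to 51.2% in yap1 at 20 min, from 39.9% to 52.3% in grx2 and from 43.2% to 56.4% in wild type, and for the glr1 difference from 59.9% to 32.1% (38.7% after quantile normalization). At 12 min it moved from 39.5% to 54.5% in grx1, from 41.2% to 53.8% in grx2 and from 35.4% to 56% in wild type. Before CHP it moved from 35.9% to 54.1% in gpx2 and from 74.8% to 41.8% in yap1. For the yap1 difference at 12 min it moved from 58.2% to 43%, and for the grx2 difference at 20 min from 35% to 45.5% after quantile normalization. With 3 cultures per arm, modest changes could not be told from the spread between cultures.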
